A study of Mus musculus with 8 samples.

Results

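A set of 10 transcripts of neutrophil granules and of the neutrophil cytosol was followed through 4 libraries of sorted germinal centre (GC) B cells: S100a8, S100a9, Ngp, Lcn2, Ltf, Camp, Lyz2, Retnlg, Elane and Mpo. These 10 genes, of 23469 gene symbols in both deposited tables, were chosen by name. Earlier readings of the same values had shown transcripts known from neutrophils in the B cell libraries. Their own levels are therefore a description, with no test. Each library is set against the others as a reading of granulocyte RNA carried through the sort, a source that was not tested.

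The libraries came from C57BL/6 mice immunized with the hapten-carrier antigen NP-KLH and taken on day 13. Knockout mice (Irf8 cKO) were CD19cre/+ with Irf8flox/flox, and control mice (Ctrl) were CD19cre/+ with Irf8+/+, so both groups carried the same Cre, which acts in the B lineage. GC B cells were sorted as B220+ FAShigh GL7high, which selects on no myeloid marker. Each of 2 experiments gave 1 library of either group (n = 2 per group), and the labels do not say how many mice a library holds. The LPS-cultured B cells of the series (4 samples) were not analysed here. Irf8 itself stood at 20.6 and 11.6 RPKM in the libraries labelled Irf8 cKO 1 and 2, against 14.5 and 14.9 RPKM in Ctrl 1 and Ctrl 2. RPKM is a read count divided by transcript length and by library size. That value runs over all exons and does not check the deletion, so every direction is that of the libraries as labelled.

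Neutrophils fill their granules in a fixed order as they mature. Promyelocytes make the primary granule enzymes myeloperoxidase (Mpo) and neutrophil elastase (Elane), and myelocytes and metamyelocytes then make the secondary granule proteins lactoferrin (Ltf), cathelicidin (Camp), neutrophilic granule protein (Ngp) and lipocalin 2 (Lcn2). S100a8 and S100a9, which pair as calprotectin, are among the most abundant transcripts of late precursors and mature neutrophils. Transcription factors of the C/EBP family and PU.1 drive much of this programme. IRF8 is known for turning myeloid progenitors towards monocytes and dendritic cells and away from neutrophils. B cells are not known as a source of these transcripts.

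The promoters of 5 of the genes are shown because they stand for both ends of the pattern that follows: S100a8, S100a9, Ngp and Lcn2 had the lowest mean log2 ratios of Irf8 cKO over Ctrl, and Mpo departed from the others in experiment 2. Each run holds 300 bases, from 250 before the start of the gene to 50 after it, from RefSeq on GRCm38.p6. S100a8 is at chr3:90668821-90669120 (plus strand), S100a9 at chr3:90695672-90695971 (minus strand), Ngp at chr9:110419558-110419857 (plus strand), Lcn2 at chr2:32387690-32387989 (minus strand) and Mpo at chr11:87793534-87793833 (plus strand). The start used for S100a9 lies 30 bases from that of the authors' table, and the other 4 starts are the same. Capitals mark a C/EBP motif (TTNNGNAA, N being any base) or a PU.1 motif (GAGGAA), read on either strand.
S100a8: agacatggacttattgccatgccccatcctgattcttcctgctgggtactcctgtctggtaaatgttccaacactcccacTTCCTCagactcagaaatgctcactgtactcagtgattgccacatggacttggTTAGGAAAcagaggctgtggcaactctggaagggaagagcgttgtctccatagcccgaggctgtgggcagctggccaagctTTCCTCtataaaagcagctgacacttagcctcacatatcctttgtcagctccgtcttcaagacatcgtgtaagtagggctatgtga
S100a9: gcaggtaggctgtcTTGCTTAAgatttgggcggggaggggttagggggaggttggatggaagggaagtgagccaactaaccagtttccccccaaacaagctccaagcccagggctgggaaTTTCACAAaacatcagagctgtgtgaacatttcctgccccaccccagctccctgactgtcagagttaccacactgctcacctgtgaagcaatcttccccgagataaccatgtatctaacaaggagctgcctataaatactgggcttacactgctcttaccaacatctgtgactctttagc
Ngp: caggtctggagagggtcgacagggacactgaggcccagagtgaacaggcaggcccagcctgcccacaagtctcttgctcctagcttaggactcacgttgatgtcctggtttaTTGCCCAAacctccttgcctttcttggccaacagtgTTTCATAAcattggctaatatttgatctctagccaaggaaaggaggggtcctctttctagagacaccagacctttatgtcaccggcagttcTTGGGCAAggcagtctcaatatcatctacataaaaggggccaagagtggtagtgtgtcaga
Lcn2: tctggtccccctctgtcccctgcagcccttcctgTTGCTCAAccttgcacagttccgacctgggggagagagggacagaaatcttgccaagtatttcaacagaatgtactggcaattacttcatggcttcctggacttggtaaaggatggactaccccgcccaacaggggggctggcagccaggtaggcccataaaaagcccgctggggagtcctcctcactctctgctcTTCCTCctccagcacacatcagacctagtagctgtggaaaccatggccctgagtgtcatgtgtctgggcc
Mpo: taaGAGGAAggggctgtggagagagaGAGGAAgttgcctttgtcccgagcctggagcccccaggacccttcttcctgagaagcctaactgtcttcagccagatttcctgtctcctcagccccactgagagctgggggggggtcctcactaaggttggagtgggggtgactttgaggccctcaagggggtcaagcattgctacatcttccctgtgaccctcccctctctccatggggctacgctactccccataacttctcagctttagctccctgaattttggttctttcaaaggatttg
The C/EBP motif lies in the promoters of 7 of the 10 genes, against 40.7% of 32851 mouse promoters of this length. Ngp holds it at 138, 102 and 11 bases before the start, S100a9 at 236 and 130, S100a8 at 117 and Lcn2 at 216. The PU.1 motif lies in 5 of the 10, against 28.3% of the 32851 promoters, at 170 and 36 bases before the start of S100a8 and at 20 before that of Lcn2. In the Mpo promoter shown above, the PU.1 motif stands at 247 and 224 bases before the start and these letters of the C/EBP motif do not occur. No base is shared between the 2 motifs in these promoters. A match is a description of the sequence and not of binding.

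The sorted cells carried the GC B cell programme. Bcl6, the factor that sets up the GC state, stood at 30.5 and 23.4 RPKM in the libraries labelled Irf8 cKO 1 and 2, against 38.7 and 37.7 in Ctrl 1 and 2. Fas, whose product the sort selected, stood at 6.33 and 3.02 RPKM in those labelled Irf8 cKO, against 7.67 and 8.59 in Ctrl. Of genes known to be low on GC B cells, Ccr6 was at most 0.310 RPKM, while Gpr183 ran from 0.747 to 2.21 RPKM and Cd38 from 1.39 to 2.47 RPKM, all below Fas in the same library. Estimated totals ran from 63.3 to 76.2 M reads (M, mega) per library, and genes at 1 RPKM or more from 4845 in the library labelled Irf8 cKO 2 to 6566 in Ctrl 1. The 45S ribosomal RNA gene Rn45s stood at 8589 and 16716 RPKM in the libraries labelled Irf8 cKO 1 and 2, against 9085 and 5887 in Ctrl 1 and 2. All other entries summed to 36104 and 23238 RPKM in those labelled Irf8 cKO, against 47056 and 38083 in Ctrl, so Irf8 cKO 2, the lowest library for most of the 10 genes, stood apart in both, and the part of this in their values was not tested. Values of the 2 experiments sit in separate tables, and each library was scaled by the authors on its own, so levels set across experiments rest on that scaling.

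Neutrophil transcripts were detected in all 4 libraries and were most abundant in Ctrl 1. The 10 genes summed to 23.3 and 2.37 RPKM in the libraries labelled Irf8 cKO 1 and 2, against 89.1 and 10.97 RPKM in Ctrl 1 and 2. Ctrl 1 was thus 3.83-fold above the highest of the other libraries, and both libraries of experiment 1 were above both of experiment 2. Scaled by median of ratios, so that a typical gene is level in all libraries, Ctrl 1 was 3.34-fold above the next. In bulk RNA, fewer cells of a type and less RNA per cell cannot be told apart.

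The genes were present at different breadths. In the libraries labelled Irf8 cKO 1 and 2, 9 and 7 of the 10 were above 0, against 10 and 8 in Ctrl 1 and 2. At 1 RPKM or more there were 5 and 0 in those labelled Irf8 cKO, against 8 and 4 in Ctrl. Ctrl 1 was the highest library for 10 of the 10, which was so for 40.8% of all 15557 genes above 0 in any library and 54.8% of the 7150 at 1 RPKM or more in any library. It was at least 2-fold above every other library for 9 of the 10, all but Lyz2, against 6.20% of the 15557 and 1.50% of the 7150. A value of 0 in these tables was not taken as absence of the RNA. Rpl30, a ribosomal protein gene that every cell uses, was also listed at 0 in the library labelled Irf8 cKO 2. It stood at 2.50 RPKM in the library labelled Irf8 cKO 1, against 4.95 and 1.65 in Ctrl 1 and 2. How that 0 arose was not tested. The earlier readings that chose the genes include these same values, so the shares are given side by side only.

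**Figure D1:**
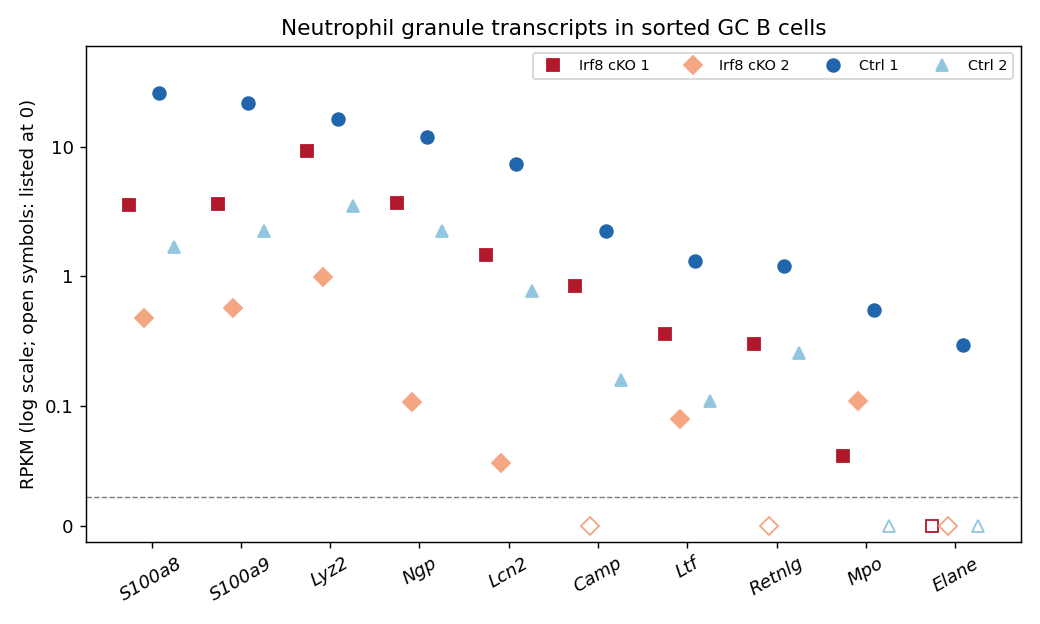
RPKM of the 10 neutrophil granule transcripts (log axis) in each of the 4 libraries, 1 symbol per library, with open symbols under the dashed line for genes listed at 0. Ctrl 1 is the top symbol for all 10 genes, and the library labelled Irf8 cKO 2 is lowest or level with the lowest for all but Mpo.

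S100a8 and S100a9, whose proteins form the calcium-binding and zinc-binding heterodimer calprotectin, gave the highest values in Ctrl 1. S100a8 (NM_013650, chr3:90669071-90670034, plus strand, mm10) stood at 3.54 and 0.477 RPKM in the libraries labelled Irf8 cKO 1 and 2, against 26.0 and 1.69 RPKM in Ctrl 1 and 2. S100a9 (NM_009114, chr3:90692633-90695691, minus strand) stood at 3.64 and 0.575 RPKM in those labelled Irf8 cKO, against 21.8 and 2.26 RPKM in Ctrl. In each experiment the library labelled Irf8 cKO was the lower one, but across experiments the groups overlapped, because Irf8 cKO 1 was above Ctrl 2. S100a8 averaged 2.01 ± 2.16 RPKM in libraries labelled Irf8 cKO and 13.8 ± 17.2 RPKM in Ctrl (mean ± SD, n = 2 each). S100a9 averaged 2.11 ± 2.17 RPKM in libraries labelled Irf8 cKO and 12.01 ± 13.8 RPKM in Ctrl. For both genes the gap between the group means was smaller than the SD within Ctrl, which holds the step between experiments and leaves out the pairing.

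The library labelled Irf8 cKO held 13.6% of the Ctrl level of S100a8 in experiment 1 and 28.2% in experiment 2. For S100a9 these shares were 16.8% and 25.4%. Experiment 2 held 13.5% of the S100a8 level of experiment 1 among libraries labelled Irf8 cKO, and 6.49% among Ctrl libraries. The step between experiments was therefore as large as the step between the labelled groups. On the log2(RPKM + 1) scale, which understates the change of low genes, the ratio of Irf8 cKO over Ctrl for S100a8 was -2.57 in experiment 1 and -0.86 in experiment 2. The first of these was the lowest of all 6446 genes with 1 RPKM or more in at least 2 libraries. It sets 1 library against 1, and S100a8 was chosen with these values known, so the rank is no test.

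Ctrl 1 held 7.35-fold the S100a8 level of the next library and 5.97-fold the S100a9 level. By approximate counts, from RPKM, transcript length and the estimated totals, S100a8 had 131 and 14.8 reads in the libraries labelled Irf8 cKO 1 and 2, against 927 and 52.0 in Ctrl 1 and 2. The 2 transcripts kept close to one another: S100a8 over S100a9 was 0.970 and 0.830 in the libraries labelled Irf8 cKO, against 1.20 and 0.747 in Ctrl. The genes lie 22.6 kb apart, with no other entry of the tables between them. The 8 other genes looked up around the pair, over 485 kb and among them S100a4 and S100a6, stayed below 1 RPKM in every library, the highest being S100a4 at 0.490 RPKM in Ctrl 1.

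The secondary granule genes showed the same order of libraries as calprotectin. Ngp (NM_008694, chr9:110419808-110423012, plus strand), a cathelicidin-related protein of the granule, stood at 3.72 and 0.107 RPKM in the libraries labelled Irf8 cKO 1 and 2, against 11.9 and 2.24 in Ctrl 1 and 2. Lcn2 (NM_008491, chr2:32384637-32387739, minus strand), which binds bacterial siderophores, stood at 1.46 and 0.0365 RPKM in those labelled Irf8 cKO, against 7.38 and 0.776 in Ctrl. Both were lower in the library labelled Irf8 cKO within each experiment, with Irf8 cKO 1 again above Ctrl 2. Their levels in the library labelled Irf8 cKO 2 were 4.79% and 4.71% of Ctrl 2, lower shares than the 31.3% for Ngp and 19.7% for Lcn2 in experiment 1. For Lcn2 the low value is about 2.14 reads, against 45.0 in Ctrl 2, so its share is imprecise.

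Ngp averaged 1.91 ± 2.55 RPKM in libraries labelled Irf8 cKO and 7.06 ± 6.82 RPKM in Ctrl (mean ± SD, n = 2 each). Lcn2 averaged 0.747 ± 1.00 RPKM in libraries labelled Irf8 cKO and 4.08 ± 4.67 RPKM in Ctrl. The gap between means was again smaller than the SD within Ctrl, which holds the step between experiments. The log2(RPKM + 1) ratio of Ngp was -1.45 in experiment 1 and -1.55 in experiment 2, and that of Lcn2 was -1.77 and -0.78. The added 1 shrinks the change at such low levels. As shares of the Ctrl RPKM, the libraries labelled Irf8 cKO held 31.3% and 4.79% for Ngp, and 19.7% and 4.71% for Lcn2. By these shares both genes were further below Ctrl in experiment 2.

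Camp (NM_009921, chr9:109847377-109849456, minus strand), the antimicrobial cathelicidin, stood at 0.852 RPKM in the library labelled Irf8 cKO 1 and was listed at 0 in Irf8 cKO 2, against 2.22 and 0.158 in Ctrl 1 and 2. Ltf (NM_008522, chr9:111019292-111042766, plus strand), which encodes the iron-binding lactoferrin, stood at 0.363 and 0.0796 RPKM in those labelled Irf8 cKO, against 1.32 and 0.109 in Ctrl. In experiment 2 the Ltf values rest on fewer than 20 approximate reads each, and after median-of-ratios scaling Ltf was no longer lower in the library labelled Irf8 cKO 2. Camp, Ngp and Ltf lie on 1 stretch of chromosome 9 of 1195 kb. Of the 28 other genes of that stretch, 17 were above 0 in any library and 9 reached 1 RPKM. Among them 1, the cell cycle phosphatase gene Cdc25a, shared their order of libraries. Of all genes above 0, 14.6% had that order, and of those at 1 RPKM or more 25.1% did. The genes of the stretch are too few to set apart from these shares.

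Lyz2, which encodes the lysozyme of neutrophils, monocytes and macrophages, had the smallest excess in Ctrl 1 of the 10 genes. Lyz2 (NM_017372, chr10:117277541-117282272, minus strand) stood at 9.34 and 0.988 RPKM in the libraries labelled Irf8 cKO 1 and 2, against 16.5 and 3.47 RPKM in Ctrl 1 and 2. Its mean was 5.16 ± 5.91 RPKM in libraries labelled Irf8 cKO and 9.98 ± 9.20 RPKM in Ctrl (mean ± SD, n = 2 each), and the groups overlapped. Ctrl 1 exceeded the next library 1.76-fold, and the library labelled Irf8 cKO held 56.7% of the Ctrl level in experiment 1 and 28.4% in experiment 2. The log2(RPKM + 1) ratios of -0.76 and -1.17 ran the other way from those of S100a8, with the lower one in experiment 2. Retnlg (NM_181596, chr16:48872608-48874498, plus strand), a resistin-like secreted protein of neutrophils, stood at 0.301 RPKM in the library labelled Irf8 cKO 1 and was listed at 0 in Irf8 cKO 2, against 1.21 and 0.259 in Ctrl 1 and 2.

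The primary granule genes had the lowest levels of the 10 in Ctrl 1. Elane (NM_015779, chr10:79886312-79888216, plus strand) was listed at 0 in both libraries labelled Irf8 cKO, against 0.296 RPKM in Ctrl 1 and 0 in Ctrl 2. Mpo (NM_010824, chr11:87793784-87804412, plus strand) stood at 0.0411 and 0.110 RPKM in the libraries labelled Irf8 cKO 1 and 2, against 0.550 RPKM in Ctrl 1 and 0 in Ctrl 2. Only Ctrl 1 held both, at about 21.3 reads for Elane and 111 for Mpo. By RPKM as deposited, Mpo was the one gene of the 10 higher in the library labelled Irf8 cKO in experiment 2, on about 19.4 reads, against a Ctrl value listed at 0.

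Of the 10 genes, 8 ran in the order Ctrl 1, Irf8 cKO 1, Ctrl 2, Irf8 cKO 2 from high to low, all but Elane and Mpo. Among the 15557 genes above 0 in any library 14.6% had that order, and among the 7150 at 1 RPKM or more 25.1% did. After median-of-ratios scaling 7 of the 10 kept it, against 11.8% of the 7150. All 10 were lower in the library labelled Irf8 cKO 1 than in Ctrl 1, as were 59.6% of the 15557 genes and 73.6% of the 7150. In experiment 2, 8 were lower in the library labelled Irf8 cKO, as were 75.0% of the 15557 and 93.1% of the 7150. After scaling, 10 were lower in experiment 1, against 55.5% of the 7150, and 7 in experiment 2, against 52.6%. As deposited, the count for experiment 2 is thus near the background, and all of these counts come from values that were known when the genes were chosen.

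The median of the mean log2(RPKM + 1) ratios, Irf8 cKO over Ctrl, was -0.76 over the 10 genes. It was -0.35 over the 6446 genes that passed the filter of 1 RPKM in 2 libraries and -0.11 over all 15557 above 0. After median-of-ratios scaling it was -0.56 over the 10, against -0.04 over the 6446. Only S100a8, S100a9, Ngp, Lcn2 and Lyz2 passed that filter, and their mean ratios ran from -1.72 for S100a8 to -0.96 for Lyz2. Within experiment 2 alone the median was -0.55 over the 10 and -0.51 over the 6446. Without Ctrl 1 no pairing by experiment can be kept, and both libraries labelled Irf8 cKO are set against Ctrl 2, so that the step between experiments enters the ratio. The median over the 10 was then -0.027. The ratios were -0.50 for Ngp, -0.27 for S100a9, -0.15 for Lcn2, -0.14 for Retnlg and -0.05 for S100a8, and 0.019 for Lyz2, 0.10 for Mpo, 0.13 for Ltf and 0.23 for Camp, with Elane at 0.

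**Figure D2:**
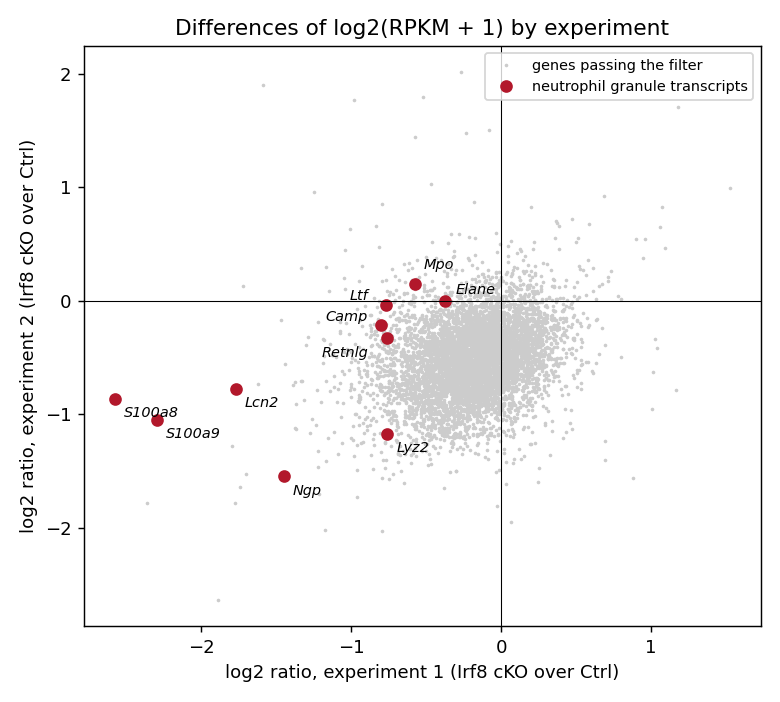
Log2 ratio of RPKM + 1, Irf8 cKO over Ctrl, in experiment 1 (horizontal axis) and experiment 2 (vertical axis); grey points are the 6446 genes that passed the filter and red points the 10 neutrophil granule transcripts. S100a8 lies furthest left of all points at -2.57, Ngp is at -1.45 and -1.55, and Mpo is the one red point above the horizontal line, at 0.15. The 10 genes were chosen with these values known.

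The authors' deposited tables compare 1 library with 1 library in each experiment and give log2 ratios of Irf8 cKO over Ctrl with unadjusted p-values. For S100a8 the authors' deposited table gives -2.67 (p = 1.21e-08) in experiment 1 and -1.10 (p = 0.501) in experiment 2. For Ngp the authors' deposited table gives -1.47 (p = 0.000231) and -3.66 (p = 0.00058). For Mpo the authors' deposited table gives -3.54 (p = 0.000879) and 7.85 (p = 0.0356), the second set against a Ctrl library at 0. These p-values speak of pairs of libraries and not of the genotypes.

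The mix of the 10 genes also differed between libraries. S100a8 and S100a9 made up 30.9% and 44.3% of the summed RPKM in the libraries labelled Irf8 cKO 1 and 2, against 53.6% and 36.0% in Ctrl 1 and 2. The 4 secondary granule genes made up 27.5% and 9.42% in those labelled Irf8 cKO, against 25.6% and 29.9% in Ctrl. Lyz2 made up 40.2% and 41.6% in those labelled Irf8 cKO, against 18.5% and 31.7% in Ctrl. Ctrl 1, with the highest sum, thus had the highest calprotectin share and the lowest Lyz2 share.

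Ratios within a library do not depend on how libraries are scaled. In the libraries labelled Irf8 cKO 1 and 2, Lcn2 over S100a9 was 0.400 and 0.0636, against 0.339 and 0.343 in Ctrl 1 and 2, so that 3 of the libraries were alike. Ngp over S100a9 was 1.02 and 0.187 in those labelled Irf8 cKO, against 0.546 and 0.991 in Ctrl. Lyz2 over S100a9 was 2.56 and 1.72 in those labelled Irf8 cKO, against 0.758 and 1.54 in Ctrl, lowest in Ctrl 1. In the library labelled Irf8 cKO 2 these ratios rest on about 19.1 reads of S100a9, 8.39 of Ngp and 2.14 of Lcn2.

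**Figure D3:**
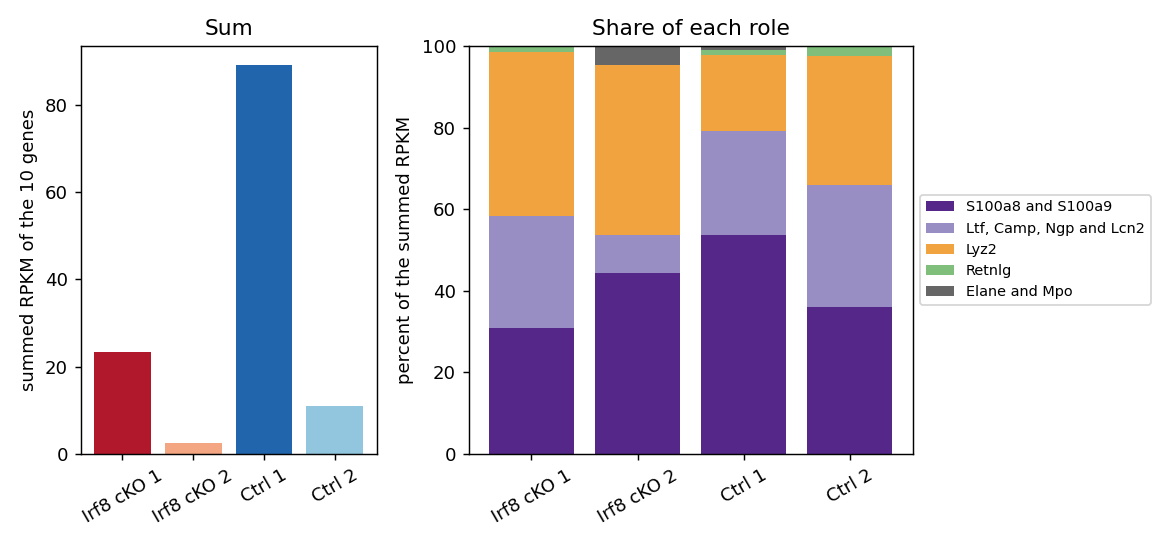
Left, summed RPKM of the 10 genes in each library; right, the percent of that sum held by calprotectin (S100a8 and S100a9), secondary granule genes, Lyz2, Retnlg and primary granule genes. Ctrl 1 has the tallest bar at 89.1 RPKM and the largest calprotectin share at 53.6%.

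Other neutrophil genes, 58 listed from knowledge of the cell type, were looked up to see whether the pattern reached beyond the 10. Of the 56 found in the tables, 47 were above 0 in any library and 9 were listed at 0 in all 4, among them Ctsg, the cathepsin G gene of primary granules. Ctrl 1 was the highest library for 29 of the 47, against 40.8% of all genes above 0, and at least 2-fold above every other library for 17 of the 47, against 6.20%. The 17 include granule proteases and chitinase-like proteins (Mmp8, Mmp9, Prtn3, Chi3l3), adhesion molecules (Itgam, Cd177) and formyl peptide receptors (Fpr1, Fpr2). In Ctrl 1 the 17 ran from 0.0259 RPKM for Trem3 to 3.26 RPKM for Chi3l3. The share of 6.20% is over genes of all levels, and it was 1.50% of those at 1 RPKM or more. In the order of libraries seen for S100a8 were 11 of the 47, against 14.6% of all genes. In experiment 2, 24 of the 47 were lower in the library labelled Irf8 cKO, against 75.0% of all genes. Only 32 of the 47 were above 0 in Ctrl 2, and a gene listed at 0 there cannot be lower. The 2 shares are therefore not alike, and no departure from all genes is read from them.

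Most of these other transcripts were scarce, and 7 of them reached 1 RPKM in any library. Chi3l3, a chitinase-like protein of neutrophil granules and of alternatively activated macrophages, stood at 0.595 and 0.121 RPKM in the libraries labelled Irf8 cKO 1 and 2, against 3.26 and 0.246 in Ctrl 1 and 2. Anxa1, an annexin of neutrophil granules and of many other cells, stood at 0.628 and 0.101 RPKM in those labelled Irf8 cKO, against 1.30 and 0.271 in Ctrl. Both kept the order of S100a8. Itgam, the CD11b chain of neutrophils and macrophages, stood at 0.349 and 0.113 RPKM in those labelled Irf8 cKO, against 0.706 and 0.219 in Ctrl. Ifitm6, an interferon-induced membrane protein, stood at 0.411 and 0 RPKM in those labelled Irf8 cKO, against 1.23 and 0 in Ctrl. The genes of this paragraph so far were picked after their values were seen. Each was highest in Ctrl 1, as were 29 of the 47. Csf3r, of the same lists, stood at 0.385 and 0.262 RPKM in those labelled Irf8 cKO, against 0.200 and 0.125 in Ctrl. Its direction was thus the opposite in both experiments.

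Of the 47, 4 passed the filter and entered the fit over all genes: Cybb, Cyba, Pglyrp1 and Slpi. None was lower or higher at a Benjamini-Hochberg adjusted p of 0.05 (limma), against 1.09% of the 6446 genes called lower and 0.0931% called higher. At an unadjusted limma p under 0.05, 2 of the 4 were lower, against 1197 of the 6446, too few genes to set apart from that share. Cybb, the NADPH oxidase subunit that B cells also express, stood at 10.98 and 4.88 RPKM in the libraries labelled Irf8 cKO 1 and 2, against 15.7 and 11.03 in Ctrl 1 and 2. Its log2 ratio was -0.75 ± 0.34 (SE; limma, adjusted p = 0.232), lower in 2 of 2 experiments. Its partner Cyba gave -0.60 ± 0.30 (limma, adjusted p = 0.259), also lower in both. Pglyrp1, a peptidoglycan recognition protein of secondary granules, stood at 0.442 and 2.33 RPKM in those labelled Irf8 cKO, against 2.42 and 0.717 in Ctrl, so its direction turned between experiments. Slpi, the secretory leukocyte protease inhibitor, stood at 2.61 and 5.30 RPKM in those labelled Irf8 cKO, against 3.69 and 4.26 in Ctrl, and turned as well. The median log2 ratio of these 4 was -0.37, against -0.35 over the 6446.

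Factors of granulocyte development differed in level. The listed C/EBP genes were at or below 0.122 RPKM in every library, while Sfpi1, Runx1 and Irf8 were above 1 RPKM in every library. Cebpe, which drives the secondary granule genes, was listed at 0 in all 4 libraries. PU.1 itself, listed as Sfpi1 and expressed in B cells too, stood at 5.70 and 4.94 RPKM in the libraries labelled Irf8 cKO 1 and 2, against 6.33 and 6.79 in Ctrl 1 and 2. Its log2 ratio was -0.26 ± 0.32 (SE; limma, adjusted p = 0.576). Of the 8 factors above 0, 0 had the order of libraries seen for S100a8, against 14.6% of all genes above 0, too few genes to set apart from that share. None of the 3 tested, Sfpi1, Runx1 and Irf8, passed the threshold in either direction (limma).

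Of the 15 other S100 family genes looked up, 10 were above 0, and 1, S100a13, had the order of S100a8, a share near the 14.6% of all genes above 0. None of the 3 tested receptors for calprotectin passed the threshold in either direction. Cd36 and Ager, of the same list, did not pass the filter. Cd36 stood at 0.339 and 0.0687 RPKM in the libraries labelled Irf8 cKO 1 and 2, against 1.28 and 0.886 in Ctrl. It was thus lower in both experiments. Ager stood at 0.269 and 0.169 RPKM in those labelled Irf8 cKO, against 0.118 and 0.218 in Ctrl, and turned between experiments. Tlr4, a signalling receptor for the S100a8 protein, stood at 1.06 and 0.587 RPKM in the libraries labelled Irf8 cKO 1 and 2, against 1.42 and 1.18 in Ctrl 1 and 2. Its log2 ratio was -0.35 ± 0.23 (SE; limma, adjusted p = 0.335), the median of all genes being -0.35. Its partner Ly96 gave -0.46 ± 0.26 (limma, adjusted p = 0.302) and Bsg, another receptor, -0.46 ± 0.29 (limma, adjusted p = 0.321), and Cd14 was listed at 0 in all 4 libraries.

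Monocytes and macrophages share Lyz2 and several of the other transcripts with neutrophils. Of 22 genes listed for them, 18 were above 0 in any library, and Cd14, Fcgr1, C1qb and Cd163 were listed at 0 in all 4. Csf1r, the growth factor receptor of macrophages, stood at 0.0608 and 0.0844 RPKM in the libraries labelled Irf8 cKO 1 and 2, against 0.0912 and 0.0935 in Ctrl 1 and 2. The macrophage genes C1qa, C1qc, Emr1 and Mertk were also above 0, at or below 0.0993 RPKM. The list summed to 10.6 and 9.14 RPKM in the libraries labelled Irf8 cKO 1 and 2, against 15.7 and 11.6 in Ctrl 1 and 2. The 56 other neutrophil genes summed to 24.2 and 16.7 RPKM in those labelled Irf8 cKO, against 40.7 and 23.3 in Ctrl. Neither list spanned the range of the 10 genes, which were chosen from these values. Cybb, which B cells also express, gave 10.98 and 4.88 RPKM of that neutrophil sum in those labelled Irf8 cKO, against 15.7 and 11.03 in Ctrl. Cyba gave 3.67 and 1.77 RPKM, against 5.96 and 3.24. Slpi gave 2.61 and 5.30 RPKM, against 3.69 and 4.26, so the sum says little of the scarcer neutrophil genes. Most of the monocyte and macrophage sum was Apoe, at 6.75 and 5.90 RPKM in those labelled Irf8 cKO, against 9.04 and 7.86 in Ctrl. Ctrl 1 was at least 2-fold above every other library for 4 of the 18 (Ccr2, Ly6c1, Ms4a7 and Mpeg1), against 6.20% of all genes above 0, and 1, Hmox1, had the order of S100a8, against 14.6%. None of the 3 tested, Apoe, Ctsd and Cd68, passed the threshold in either direction (limma, adjusted p = 0.459, 0.654 and 0.460), and 0 of them had an unadjusted p under 0.05.

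By summed RPKM, none of the lists for T cells, NK cells, dendritic cells, stroma, erythroid cells and platelets, or the other granulocytes was highest in Ctrl 1. T cell genes summed to 10.4 and 6.32 RPKM in the libraries labelled Irf8 cKO 1 and 2, against 8.52 and 8.38 in Ctrl 1 and 2, mostly from Lck and Cd247, with Cd3g, Cd8b1 and Icos listed at 0 in all. Erythroid and platelet genes summed to 3.03 and 2.83 RPKM in those labelled Irf8 cKO, against 2.75 and 2.13 in Ctrl. NK cell genes summed to 0.0908 and 0.0726 RPKM in those labelled Irf8 cKO, against 0.0599 and 0.0753 in Ctrl. The list of eosinophils, basophils and mast cells, the other granulocytes, was highest in the library labelled Irf8 cKO 2 at 1.58 RPKM, of which Prg2, the eosinophil major basic protein gene, gave 1.32 RPKM. By single genes, 5 of the 9 above 0 in that list (Ear1, Siglec5, Mcpt8, Gata2 and Ms4a2) were at least 2-fold above every other library in Ctrl 1, against 6.20% of all genes above 0, each at no more than 0.0587 RPKM. Whether neutrophil RNA was carried over, and how far it contributes to any other difference between these libraries, was not tested.

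**Figure D4:**
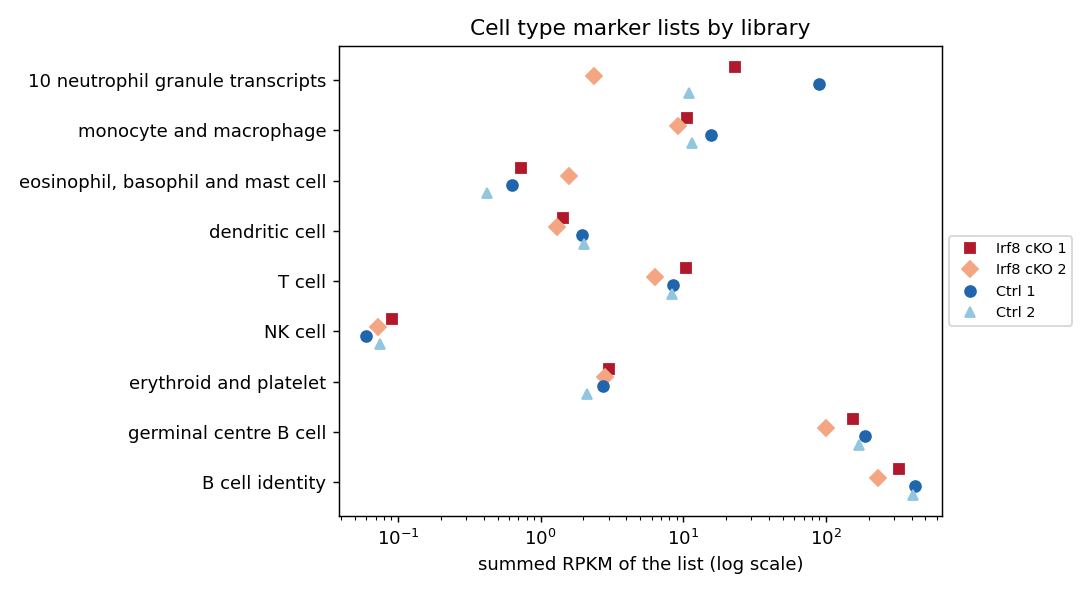
Summed RPKM (log axis) of each marker list in the 4 libraries, 1 symbol per library, lists running down the page. The 10 neutrophil granule transcripts span 2.37 to 89.1 RPKM between libraries, while the monocyte and macrophage list spans 9.14 to 15.7 RPKM and the B cell identity list 232 to 421 RPKM.

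The genes with a like excess in Ctrl 1 were listed as a description. Of 4422 genes at 2 RPKM or more in Ctrl 1, 9 were at least 3-fold above every other library, limits that were chosen after the values were seen and that use Ctrl 1 itself, so the count supports nothing about the 10. They were S100a8, S100a9, Ngp and Lcn2, and 5 others: Chi3l3, Gm5643, Polr2i, Snord65 and Snord45b. Snord45b and Snord65 are small nucleolar RNA genes, at 11.4-fold and 7.28-fold, and Polr2i encodes a subunit of RNA polymerase II, at 3.47-fold. Chi3l3, the only neutrophil gene of these 5, was 5.48-fold above the next library.

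**Figure D5:**
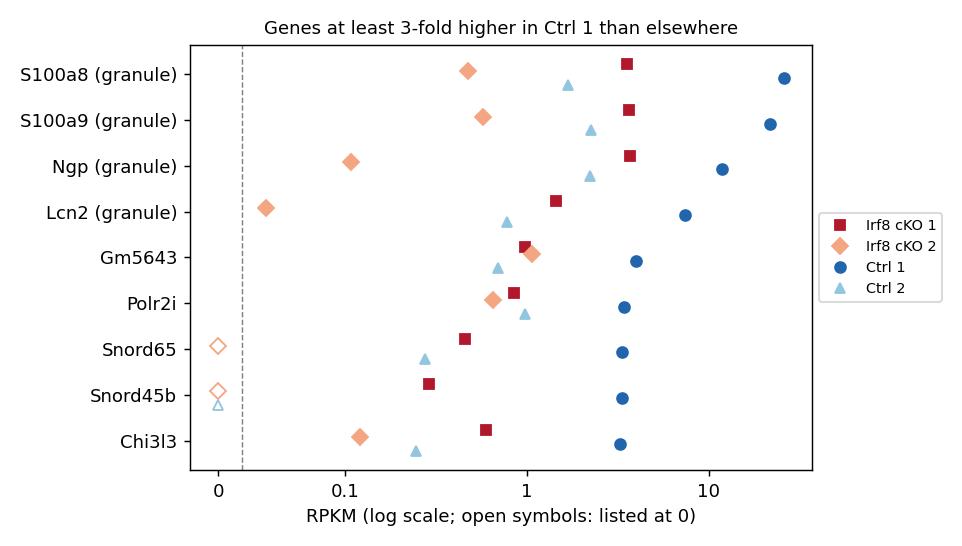
RPKM (log axis) in each library of the 9 genes with at least 2 RPKM in Ctrl 1 and at least 3-fold more there than in any other library; genes marked granule are among the 10, and open symbols are values listed at 0. S100a8 and S100a9 stand highest in Ctrl 1, at 26.0 and 21.8 RPKM.

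Likeness to calprotectin was measured as the root-mean-square distance between centred log2(RPKM + 1) profiles over the 4 libraries, from the mean profile of S100a8 and S100a9. Among the 6446 genes the median distance was 1.31. Lcn2 at 0.381, Ngp at 0.430 and Lyz2 at 0.602 were the nearest after the 2 calprotectin genes themselves. Beyond them the nearest 8 genes were 2010107E04Rik, Hist1h4c, Rpl30, Lmo4, 2810417H13Rik, Myeov2, Hist1h4d and Snrpe, at 0.709 to 0.837. The rest of the 10 granule genes did not pass the filter and lay farther than these 8. They were Camp at 0.855, Ltf at 1.06, Retnlg at 1.07, Mpo at 1.28 and Elane at 1.34. All 10 were chosen from these values and the 2 calprotectin genes set the profile, so the distances are no test. Hist1h4c, a replication-dependent histone H4 gene, stood at 18.3 and 7.24 RPKM in the libraries labelled Irf8 cKO 1 and 2, against 34.4 and 8.54 in Ctrl 1 and 2. Lmo4, a LIM-domain transcriptional cofactor, stood at 5.44 and 1.76 RPKM in those labelled Irf8 cKO, against 10.3 and 3.66 in Ctrl. Both follow the order of S100a8 within a smaller range. Likeness over 4 libraries is a description and says nothing of shared control.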

How the data were processed

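RNA-seq was done on 4 sorted GC B cell libraries. Flash-frozen cells gave RNA by RNeasy Mini, which was amplified (Ovation RNA-Seq System v2) and tagged with Nextera XT, per the labels' protocols. The authors deposited, for either experiment, a table of 23471 entries with an RPKM for every library, from Wardrobe as the series design says. No source used here gives the aligner for these values. TopHat2 2.0, Cufflinks 2.2, Cuffdiff and DESeq stand in the submitters' processing notes without a role. Coordinates in the tables are mm10. The authors' deposited log2 ratio and unadjusted p-value, also in each table, set 1 library against 1. Values of entries under 1 symbol (2 such symbols) were added up.

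The members and lists were chosen with earlier results of these data known. The 10 granule genes were chosen from these values, so they carry no test. Other genes were read off 1 fit over 6446 genes reaching RPKM 1 in 2 or more libraries, on log2(RPKM + 1), with limma 3.58.1 in R 4.3.3 (lmFit, eBayes with a trend, 2-sided), the experiment as a block and Benjamini-Hochberg adjustment at 0.05. It has 1 residual degree of freedom and an infinite prior, so each SE comes from genes of similar level, and a gene's own spread had no weight. The experiment pairs the libraries because the labels number them and each has its own table. Same-numbered libraries' deviations from the group means correlated at 0.377. Nothing says the libraries came from separate animals, so p-values measure the spread between these samples, which may be technical. An exact 2-sided permutation test of 2 against 2 cannot go below 0.333.

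Read totals were estimated from the spacing of low RPKM values times GENCODE vM21 transcript lengths. Of these values 68.3% to 70.7% lay within 0.1 of a whole read, so reads were not recovered, no count model was run and read numbers are approximate. Entries at 0 are listed as such. Alternatives were median-of-ratios scaling, a pseudocount of 0.1, other filters, no block, eBayes without a trend and each library left out. Genes named beside the 10 are the 4 of highest mean per list, and the 8 nearest in profile to calprotectin. Others named were chosen after their values were seen. Motifs were searched on both strands of RefSeq promoters matched by symbol (10 of 10). The rest used matplotlib 3.10.9, pandas 2.3.3 and numpy 2.4.6 under Python 3.11.15.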

Additional observations from a re-analysis of the deposited data

Results flagged for a closer look

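Mpo moved in opposite directions in the 2 experiments, with a log2(RPKM + 1) ratio of Irf8 cKO over Ctrl of -0.57 in experiment 1 and 0.15 in experiment 2. Pglyrp1 did so with -1.24 in experiment 1 and 0.96 in experiment 2. Slpi did so with -0.38 in experiment 1 and 0.26 in experiment 2. In each case 1 library of either group stands behind each ratio, and the difference between experiments was not tested.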

How the results depend on the processing

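The values have 2 libraries per group, and leaving out 1 moves most of them. The median log2 ratio of the 10 genes, -0.76 as reported, was -0.56 after median-of-ratios scaling and -1.55 with a pseudocount of 0.1. It ran from -1.60 without Ctrl 2 to -0.027 without Ctrl 1, and was -1.42 without Irf8 cKO 1 and -0.31 without Irf8 cKO 2. Single genes turned above 0 without Ctrl 1 (Lyz2 0.019, Camp 0.23, Ltf 0.13, Mpo 0.10) and without Irf8 cKO 2 (Lyz2 0.23). Ctrl 1 over the next library for the summed RPKM, 3.83-fold as reported, was 3.34-fold after scaling, 2.57-fold without S100a8 and S100a9 and 5.22-fold without Lyz2. After scaling, Ctrl 1 was at least 3-fold above every other library for 6 of the 10 genes, against 8 as deposited. Over all genes, the 70 called lower and 6 higher became 0 and 0 after scaling (380 and 279 at an unadjusted limma p under 0.05) and 3 and 1 with factors over the tested genes only, an alternative chosen after seeing the data. They became 0 and 0 with no filter (1694 and 292 unadjusted) and 19 and 2 with no replicate block. Without a variance trend 277 were lower and 6 higher. Leaving out 1 library gave 0 (Ctrl 1, 31 unadjusted) to 1450 lower (Irf8 cKO 1), with 5 without Ctrl 2 and 13 without Irf8 cKO 2, and 0 to 9 higher. Of the other neutrophil genes 4 were tested as reported, 47 with no filter and 7 with 1 RPKM or more in at least 1 library. With all 4 libraries kept, 0 were called lower in each alternative, though 12 of the 47 had an unadjusted limma p under 0.05. Without Irf8 cKO 1 the median log2 ratio of the 4 was -0.32. No monocyte or macrophage gene was called in any alternative. The causes were not tested. Low estimated read numbers limit Elane, Mpo, Camp and Retnlg most.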
